A study of Mus musculus with 84 samples.

Results

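MHC class II antigen presentation genes were followed in mouse colon: H2-Aa and H2-Ab1, the alpha and beta chains of I-A, H2-Eb1, the beta chain of I-E, H2-DMa and H2-DMb1, the chains of the peptide exchange factor H2-M, Cd74, the invariant chain, and Ciita, the class II transactivator. The 7 genes were picked by name for their role in class II presentation, with earlier results of these data known, and no measured value enters the rule. They are 7 of the 25494 genes of the RNA-seq count table. All 7 were among the 15893 genes that passed the filter on low counts. In C57BL/6, the strain of all mice used here, only I-A reaches the cell surface, because the gene of the I-E alpha chain carries a promoter deletion.

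MHC class II molecules carry peptides from the endosome to the cell surface, where CD4 T cells read them. The invariant chain occupies the groove until cathepsins degrade it and H2-M exchanges the last fragment for a peptide. Ciita binds no DNA itself but joins RFX and NF-Y proteins that sit on the X and Y boxes of every class II promoter. B cells, dendritic cells and macrophages make class II constantly, and intestinal epithelium can make it when interferon gamma induces Ciita.

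Expression was measured in recipients, which were male germ-free C57BL/6 mice gavaged 4 times a week for 5 weeks with stool supernatant of male donors. HFDHFB and HFDLFB recipients ate the high fat diet (HFD, 60% of calories from fat) and received bacteria of HFD donors (HFB) or of low fat diet donors (LFB). LFDHFB and LFDLFB recipients ate the low fat diet (LFD, 10%) and received the same kinds of bacteria. Each group had 3 RNA-seq libraries, 12 in all, made from cells scraped from the colon. H3K27ac, a histone mark of active promoters and enhancers, was mapped in 11 recipient libraries, 2 of HFDHFB and 3 of each other group. It was also mapped in conventionally raised C57BL/6 mice kept singly on HFD or LFD for up to 20 weeks. Each diet had 3 male and 3 female libraries of H3K27ac and as many of H3K4me1, a mark of both poised and active enhancers. HNF4a, a transcription factor of intestinal epithelium, was mapped in 2 HFD and 2 LFD libraries of males. The epithelial cells of these mice were released with EDTA and checked for purity by EpCAM and CD45, and were not free of other cells. Nothing in the labels ties the recipient RNA and H3K27ac libraries to the same animals.

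Totals of the RNA-seq libraries ran from 39904191 to 48026846 counted reads. The 8 epithelial markers were high in every library, with a summed level of 8501 to 12856 counts per 1000000 reads after TMM scaling (CPM), and Epcam averaged 959 RPKM, which is CPM per kb of exon. Leukocyte markers were present as well, and none of the 32 markers of B cells, T cells, macrophages and dendritic cells was at 0 in any library. Their summed levels ran from 3.63 to 37.3 CPM for B cells, 12.3 to 27.5 for T cells, 8.66 to 20.7 for dendritic cells and 89.8 to 191 for macrophages. In such bulk samples, fewer cells of a type and less RNA per cell cannot be told apart.

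The members lie in 4 separate places of the genome (mm9). H2-Ab1 (chr17:34400172-34406363, plus strand), H2-Aa (chr17:34419696-34424716, minus strand) and H2-Eb1 (chr17:34442812-34453619, plus strand) are neighbours in the class II region. H2-DMa (chr17:34259777-34276046, plus strand) and H2-DMb1 (chr17:34290136-34297174, plus strand) lie on the same chromosome, nearer to Brd2. The count table's locus of H2-DMa begins 12350 bp upstream of the start that the GENCODE annotation gives, close to Brd2, so values at that end of the locus need not concern H2-DMa. Ciita is at chr16:10480165-10527733, on the plus strand, and Cd74 lies on a chromosome of its own.

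Promoters of class II chains are shown because letters of the X and Y boxes that Ciita acts through can be looked for in them. RefSeq windows from 250 bases before to 50 after the start (GRCm38.p6) matched 4 of the 7 members, and H2-Aa (chr17:34287774-34288073, minus strand), H2-Eb1 (chr17:34305617-34305916, plus strand) and H2-DMb1 (chr17:34152941-34153240, plus strand) follow, 5′ to 3′ on the strand of the gene. Capitals mark AACNGATG, the core of an X box, TGACGTCA, the CREB-type X2 box, and GATTGG, the Y box that NF-Y binds, each searched on both strands.
H2-Eb1 promoter: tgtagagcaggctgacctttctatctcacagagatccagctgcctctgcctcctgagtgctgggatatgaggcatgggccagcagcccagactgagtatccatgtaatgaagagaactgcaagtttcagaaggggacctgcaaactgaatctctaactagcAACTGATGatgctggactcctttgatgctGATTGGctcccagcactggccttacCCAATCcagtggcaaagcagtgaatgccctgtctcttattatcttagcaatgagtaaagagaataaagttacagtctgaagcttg
H2-DMb1 promoter: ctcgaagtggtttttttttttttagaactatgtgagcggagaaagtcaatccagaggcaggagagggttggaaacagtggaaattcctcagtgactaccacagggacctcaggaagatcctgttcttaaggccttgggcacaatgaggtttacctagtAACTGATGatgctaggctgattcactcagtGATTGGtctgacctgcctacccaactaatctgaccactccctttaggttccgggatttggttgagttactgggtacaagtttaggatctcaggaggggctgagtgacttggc
H2-Aa promoter: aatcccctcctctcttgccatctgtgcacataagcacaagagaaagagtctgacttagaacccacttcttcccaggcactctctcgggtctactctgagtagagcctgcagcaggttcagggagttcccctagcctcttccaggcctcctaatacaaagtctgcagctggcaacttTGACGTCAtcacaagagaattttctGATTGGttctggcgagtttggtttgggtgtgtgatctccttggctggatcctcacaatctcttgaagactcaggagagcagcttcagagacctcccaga
In H2-Eb1 an AACTGATG began 89 bases before the start, with GATTGG 21 bases after its end. In H2-DMb1 the same pair lay 92 and 62 bases before the start, 22 bases apart, and the neighbouring paralog H2-DMb2 held AACCGATG and GATTGG with the same gap of 22 bases. H2-Eb1 held a further GATTGG on the opposite strand, printed as CCAATC. H2-Aa held TGACGTCA 74 bases and GATTGG 49 bases before the start. The windows of H2-Aa and of the further chains H2-Oa and H2-Ob lacked the X core, as did both RefSeq windows of H2-DMa. That says only that these letters are not in those windows. Of 32851 mouse promoter windows of this length, 2.32% held AACNGATG, 1.79% TGACGTCA and 16.1% GATTGG. An X core followed on the same strand by a Y box within 40 bases occurred in 11 windows (0.0335%), among them those of H2-Eb1, H2-Eb2, H2-DMb1 and H2-DMb2. A match is a run of letters and not evidence of binding.

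Corrected for exon length, the members fell into 4 tiers of expression. Cd74 was the highest, at 125 ± 45.6 RPKM (SD, n = 12 libraries), from 70.7 to 219. The classical chains H2-Eb1, H2-Ab1 and H2-Aa followed at 54.4 ± 15.0, 50.1 ± 14.6 and 46.1 ± 14.8 RPKM (SD, n = 12). The H2-M chains H2-DMa and H2-DMb1 stood at 6.08 ± 1.40 and 4.69 ± 1.80 RPKM (SD, n = 12), and Ciita at 0.492 ± 0.233 RPKM (SD, n = 12).

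The tiers held inside each library, although the ranges over libraries of Cd74 and H2-Eb1 met (33.0 to 78.2 RPKM for H2-Eb1). Cd74 exceeded H2-Eb1 in 12 of 12 libraries, by a median ratio of 2.20, H2-Aa exceeded H2-DMa in 12 of 12, by 7.53, and H2-DMb1 exceeded Ciita in 12 of 12, by 9.69. Neighbours inside a tier did not keep their order. H2-Eb1 was above H2-Ab1 in 9 of 12 libraries and H2-DMa above H2-DMb1 in 10 of 12. H2-DMb1 shares sequence with H2-DMb2 (73.4% of 1573 aligned transcript bases identical), and 26.8% of its 50-base windows occur exactly in H2-DMb2, so its count is uncertain where reads could be assigned to either gene.

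**Figure D1:**
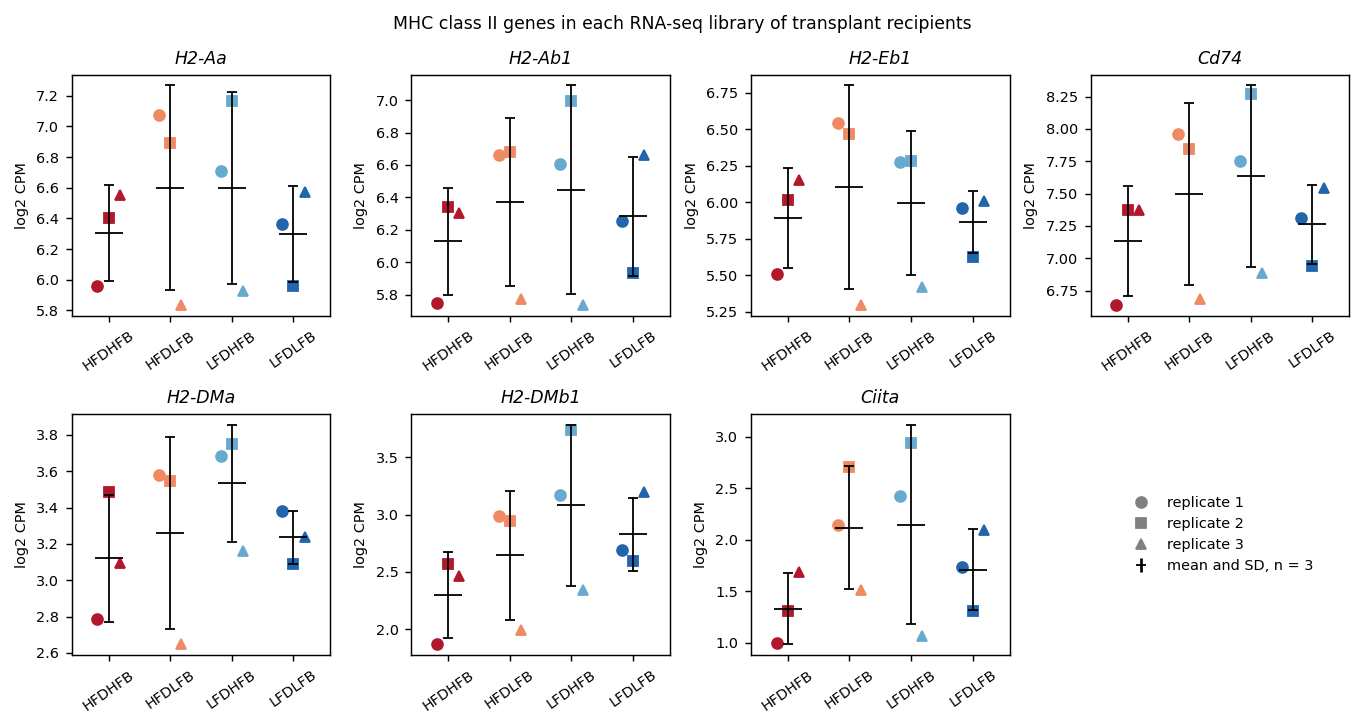
Level of each class II gene in every recipient RNA-seq library, in log2 CPM, with 1 point per library shaped by replicate and black bars for the group mean and SD (n = 3). Groups that differ in 1 factor overlap in all 7 genes, and HFDLFB replicate 3 and LFDHFB replicate 3 are the lowest libraries of their groups in each.

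Cd74 (chr18:60963503-60972306, mm9, plus strand) had the highest level and shows the pattern of the set. Its levels in replicates 1, 2 and 3 were 99.7, 166 and 166 CPM in HFDHFB, 249.5, 229 and 103 in HFDLFB, 215, 309 and 118 in LFDHFB, and 158, 122 and 186 in LFDLFB. The highest of these 12 values and 1 of the 3 lowest were both LFDHFB libraries, so that group alone spanned nearly the whole range.

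The I-A chains behaved alike. H2-Aa measured 62.1, 84.6 and 94.0 CPM in HFDHFB, 134, 119 and 57.1 in HFDLFB, 104, 143 and 60.7 in LFDHFB, and 82.4, 62.2 and 95.0 in LFDLFB. H2-Ab1 measured 53.8, 80.8 and 79.0 CPM in HFDHFB, 101, 103 and 54.6 in HFDLFB, 97.6, 127 and 53.3 in LFDHFB, and 76.3, 61.0 and 101 in LFDLFB. Again 1 library of HFDLFB and 1 of LFDHFB were about as low as the lowest HFDHFB library, while the others of these groups were high.

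H2-Eb1, whose I-E partner chain is missing in this strain, was expressed with them. Its levels were 45.4, 64.7 and 71.0 CPM in HFDHFB, 93.0, 88.4 and 39.3 in HFDLFB, 77.6, 77.9 and 42.8 in LFDHFB, and 62.3, 49.3 and 64.2 in LFDLFB. The pseudogene of the partner, H2-Ea-ps, had 1 read over all 12 libraries.

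The H2-M chains were lower but followed the same libraries. H2-DMa measured 6.86, 11.1 and 8.50 CPM in HFDHFB, 11.9, 11.7 and 6.23 in HFDLFB, 12.8, 13.4 and 8.90 in LFDHFB, and 10.4, 8.46 and 9.40 in LFDLFB. H2-DMb1 measured 3.61, 5.87 and 5.46 CPM in HFDHFB, 7.90, 7.67 and 3.95 in HFDLFB, 8.94, 13.3 and 5.01 in LFDHFB, and 6.41, 6.01 and 9.10 in LFDLFB. LFDHFB replicate 2 was the highest library for both. For H2-DMb1 the HFDHFB libraries lay below the LFDLFB libraries, groups that differ in both diet and bacteria and were not compared by the design. The gap was narrow, from 5.87 to 6.01 CPM, and the share of all genes that separate these groups was not computed.

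Ciita, the regulator, had the widest relative spread. It measured 1.96, 2.43 and 3.18 CPM in HFDHFB, 4.36, 6.48 and 2.80 in HFDLFB, 5.34, 7.64 and 2.05 in LFDHFB, and 3.28, 2.43 and 4.23 in LFDLFB, from 85 to 335 reads per library. The highest library was 3.91 times the lowest, against 3.10 times for Cd74, and in none of the 4 comparisons of the design did the groups separate.

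The first question of the design was whether the donor's bacteria set the level of these genes in HFD-fed recipients. In HFDHFB against HFDLFB all 7 members were lower on average, with log2 fold changes from -0.17 for H2-DMa to -0.85 for Ciita (SE 0.46) and a median of -0.37, against a median of -0.0019 over all tested genes, of which 50.3% were below 0. None passed the test: the adjusted p of edgeR's quasi-likelihood test ran from 0.601 to 0.893, and 0% of all genes were called. Without adjustment, 0 members and 9.07% of all genes had p under 0.05, the lowest member p being 0.0913 for Ciita. DESeq2 called 80 genes here and no member. Cd74 differed by -0.43 (SE 0.38) and H2-Aa by -0.37 (SE 0.35), each about as large as its error. The signs held with any library left out but the sizes did not, running from -0.40 to -0.015 for H2-DMa, -0.65 to -0.13 for H2-Aa, -0.58 to -0.081 for H2-Eb1 and -1.09 to -0.50 for Ciita. The 3 libraries of 1 group overlapped the other in all 7 members, whereas 13% of all genes did not overlap.

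In LFD-fed recipients the sign was the opposite. In LFDHFB against LFDLFB all 7 members were higher on average, by 0.17 (H2-Eb1) to 0.60 (Ciita, SE 0.46) on the log2 scale, with a median of 0.34, against 0.022 over all genes, of which 53.5% were above 0. Adjusted p values of edgeR's quasi-likelihood test were 0.975 to 0.98, and 0% of all genes were called. DESeq2 called none either. Without adjustment, 0 members and 3.72% of all genes had p under 0.05. No member separated the groups, against 10.8% of all genes. The means of LFDHFB rested on replicates 1 and 2. Without replicate 2 of LFDHFB, the difference of H2-Ab1 was -0.057 and that of H2-DMb1 -0.019.

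The difference between these donor effects was tested as the interaction of diet and bacteria. It was below 0 for all 7 members, from -0.46 for H2-Eb1 to -1.45 for Ciita (SE 0.65), with a median of -0.72, against -0.053 over all genes, of which 54.3% were below 0. By edgeR's quasi-likelihood test the adjusted p ran from 0.439 (Ciita) to 0.74, with 0% of all genes called, and Ciita alone of the 7 had an unadjusted p under 0.05 (0.047), as had 11.3% of all genes. DESeq2 called 35 genes and no member. The sign was kept by all 7 members when any of the 12 libraries was left out. The interaction shares its libraries with both donor comparisons and adds no new sample.

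The diet comparisons asked whether the food of the recipient mattered for a given donor. In HFDHFB against LFDHFB all 7 members were lower on average, the farthest being Ciita at -0.99 (SE 0.46) and H2-DMb1 at -0.86 (SE 0.38), with a median of -0.41, against -0.034 over all genes, of which 54.7% were below 0. H2-DMb1 had an unadjusted p of 0.043, and 7.46% of all genes were under 0.05. By edgeR's quasi-likelihood test its adjusted p was 0.658 and 0% of all genes were called, while DESeq2 called 116 genes and no member. H2-Eb1 differed by -0.13, and its value rested on single libraries, running from -0.36 to 0.038 with 1 library left out. No member separated the groups, against 11% of all genes.

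With bacteria of LFD donors, 6 of 7 members were higher in HFDLFB than in LFDLFB and H2-DMb1 was lower, at -0.14. The largest difference was 0.46 for Ciita and the median 0.32, against 0.0040 over all genes, of which 50.7% were above 0. Adjusted p values of edgeR's quasi-likelihood test were 0.904 to 0.977, with 0% of all genes called, and 0 members and 5.33% of all genes had an unadjusted p under 0.05. DESeq2 called 9 genes and no member. No member separated the groups, against 11.7% of all genes. Averaged over donors, the diet difference of the members ran from -0.50 to 0.10, and averaged over diets the donor difference ran from -0.13 to 0.07. Each had an adjusted p of 1 by edgeR's quasi-likelihood test with 0% of all genes called, and 2.94% and 2.51% of all genes, but 0 members, had an unadjusted p under 0.05. DESeq2 called 6 and 4 genes there, and no member.

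**Figure D2:**
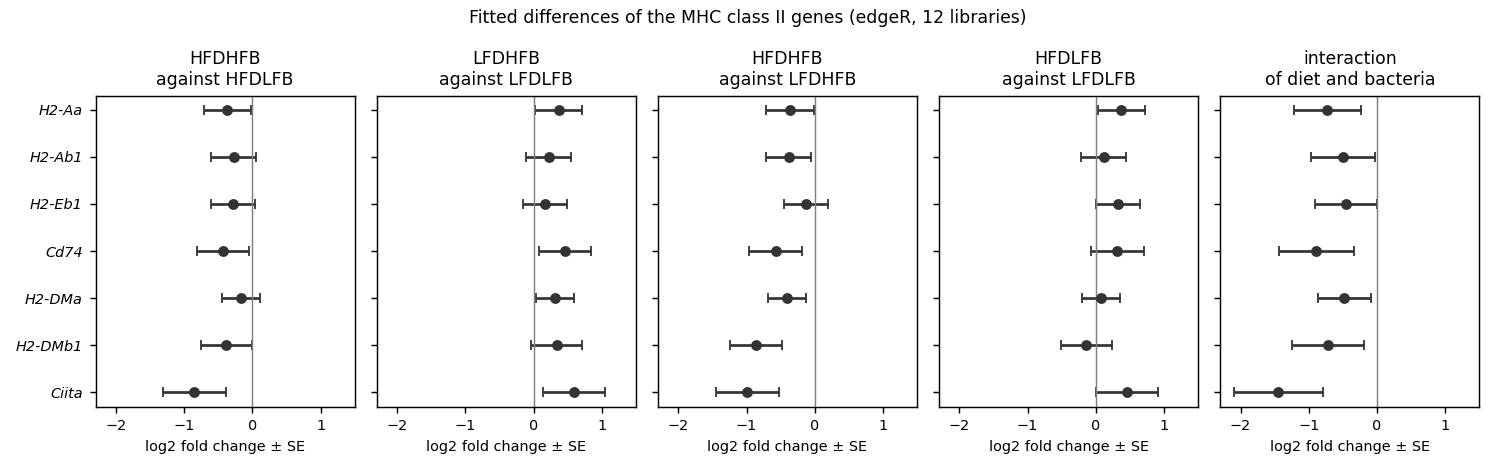
Log2 fold change of each class II gene in the 4 group comparisons and the interaction, with bars of 1 SE from edgeR's fit of 12 libraries. The 7 genes lie below 0 in HFDHFB against HFDLFB, above 0 in LFDHFB against LFDLFB and below 0 in the interaction, and none passed the adjusted threshold.

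Levels of the set varied widely inside HFDLFB and LFDHFB and less inside HFDHFB and LFDLFB. The summed level of the 7 members ran from 267 CPM in HFDLFB replicate 3 to 692 CPM in LFDHFB replicate 2, a ratio of 2.59. By group it ran from 273 to 427 CPM in HFDHFB, 267 to 602 in HFDLFB, 291 to 692 in LFDHFB and 312 to 470 in LFDLFB. The ratio of the highest to the lowest library was 2.26 and 2.38 in HFDLFB and LFDHFB and 1.56 and 1.51 in HFDHFB and LFDLFB.

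The members moved together from library to library. Over the 12 libraries the 21 pairs of members had Pearson correlations of log2 CPM from 0.74 to 0.98, median 0.90, and Spearman correlations from 0.71 to 0.98. After subtracting the group means the correlations were 0.73 to 0.99, median 0.93. In HFDHFB replicate 1, HFDLFB replicate 3, LFDHFB replicate 3 and LFDLFB replicate 2 none of the 7 genes was above its group mean, while in HFDLFB replicates 1 and 2, LFDHFB replicates 1 and 2 and LFDLFB replicate 3 all 7 were. These are descriptions of 12 libraries that share depth and tissue mixture, and genes of a library are not independent.

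The genes most like the members included several known from leukocytes. By the correlation of log2 CPM with the members' mean over the 12 libraries, the top 10 of 15886 other genes were Csf2rb2 (0.91), Il21r (0.89), Arhgap25 (0.88), Tlr6 (0.87), Spef2 (0.87), Csf3r (0.87), Hmha1 (0.87), Bin2 (0.86), Dennd1c (0.86) and Bank1 (0.86). Il21r and Csf3r are cytokine receptors of leukocytes, Tlr6 is a receptor for bacterial lipopeptides and Bank1 is a B cell adaptor. By Spearman correlation 4 of these 10 were again in the top 10. The paralog H2-DMb2 ranked at 32 (0.81), Psmb8, an immunoproteasome subunit, at 12 (0.84) and Irf1, a transcription factor induced by interferon, at 84 (0.75).

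Markers of other cells moved with the members in part. Across the 12 libraries, the mean log2 CPM of 8 T cell markers correlated with that of the members at 0.76 (Spearman 0.77), of 8 B cell markers at 0.68 (0.67), of 8 dendritic cell markers at 0.61 (0.61) and of 8 macrophage markers at 0.53 (0.50). Without the 2 libraries farthest from the median the values were 0.63, 0.70, 0.48 and 0.37. For 8 epithelial markers the value was -0.31 (-0.25), and 0.02 without the 2 libraries farthest in that list. After subtracting the group means, T cell, B cell, dendritic cell and macrophage markers correlated with the members at 0.83, 0.74, 0.74 and 0.71. Epithelial markers did so at -0.24. Further lists of immune genes were compared in the same way. MHC class I genes, which nearly all cells with a nucleus express, correlated with the members at 0.77 (0.80), and co-stimulatory ligands at 0.66 (0.69). Without the 2 libraries farthest in each list these values were 0.58 and 0.65, and after subtracting the group means 0.74 and 0.70. LFDHFB replicate 3, low for the members, had the fewest B cell marker reads, at 3.63 CPM, and LFDHFB replicate 1, high for the members, had the most, at 37.3 CPM. Other libraries matched less well in B cell markers, around a median of 17.8 CPM. By summed level LFDHFB replicate 2 was the highest for the members and had 21.4 CPM of B cell markers. HFDLFB replicate 1 was next with 16.5 CPM, and HFDLFB replicate 3 was the lowest for the members with 13.0 CPM. The mean log2 CPM of T cell markers was 0.454 in HFDHFB replicate 1 and in HFDLFB replicate 3. It was 0.480 in LFDLFB replicate 2, 0.555 in LFDHFB replicate 3 and 0.703 to 1.58 in all others. In the named libraries none of the members was above its group mean. The part of leukocyte number in the members' levels was not tested.

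**Figure D3:**
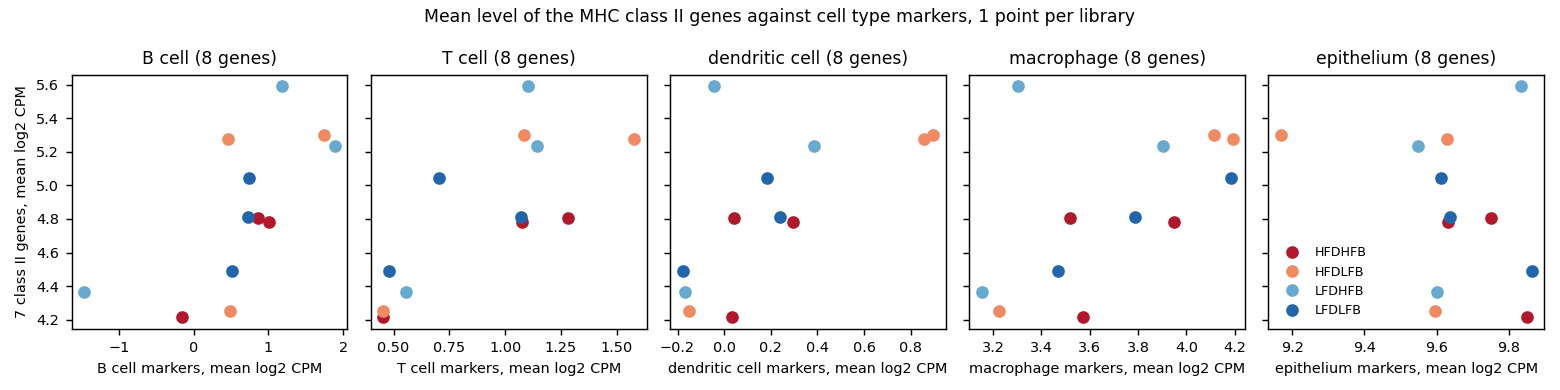
Mean level of the members against that of 8 markers of each cell type in the 12 recipient RNA-seq libraries, in log2 CPM, 1 point per library, coloured by group. B cell and T cell markers follow the members (Pearson 0.68 and 0.76), epithelial markers do not (-0.31). MHC class I genes, not drawn, follow them as well (0.77).

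The wider class II pathway showed where the members stand among their partners. Of a list of 28 genes 26 were tested, and H2-Ea-ps and Ifng, the inducing cytokine with 37 reads in all, were too low. In RPKM the other class II chains were low, H2-DMb2 at 1.38, H2-Oa at 1.27, H2-Ob at 1.08 and H2-Eb2 at 0.512, while the protease Ctss, which trims the invariant chain, stood at 658. MHC class I, which nearly all cells with a nucleus make, was far higher than class II, with H2-K1 at 464 and B2m at 791 RPKM.

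No gene of the pathway passed the adjusted threshold in any of the 7 comparisons. In HFDHFB against HFDLFB 21 of 26 were below 0, with a median of -0.16 against -0.0019 over all genes. An unadjusted p under 0.05 was found for 5 of 26, against 9.07% of all genes, and among them, named after their values were seen, were March1, the ubiquitin ligase that removes class II from the surface (-1.08), Jak1 (-0.29) and Jak2 (-0.46), which carry the interferon signal, and Rfxap, a subunit of RFX, which was higher (0.52). By edgeR's quasi-likelihood test their adjusted p ran from 0.495 to 0.542. In LFDHFB against LFDLFB 0 of 26 had an unadjusted p under 0.05, against 3.72% of all genes.

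All 9 class I genes were also below 0 in HFDHFB against HFDLFB, with a median of -0.17, and Nlrc5, the class I transactivator, was at -0.94 (unadjusted p 0.0338, adjusted p 0.517 by edgeR). Among 6 co-stimulatory ligands, Cd274 (PD-L1), which dampens T cells and is induced by interferon gamma, had the smallest p. It measured 7.36 ± 0.683 CPM (SD, n = 3) in HFDHFB against 15.8 ± 3.23 (SD, n = 3) in HFDLFB, 13.4 to 13.7 (n = 3) in LFDHFB and 12.4 ± 3.02 (SD, n = 3) in LFDLFB. The 3 HFDHFB libraries lay below all other 9 libraries. The share of all genes that separate in this way was not computed, and 13% of all genes did not overlap between HFDHFB and HFDLFB alone. The log2 fold change against HFDLFB was -1.11 (SE 0.20), with an unadjusted p of 0.000197 and an adjusted p of 0.495 by edgeR's quasi-likelihood test. Cd274 was singled out after its values were seen. Zbtb46, a transcription factor of dendritic cells, also was lower in that comparison, at -1.69 (unadjusted p 0.0019, adjusted p 0.495 by edgeR), and was chosen in the same way.

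At the chromatin, the class II loci carried little H3K27ac at the gene starts of epithelium of long-term fed mice. A peak covered the start of H2-Ab1 in 3 of 12 libraries, of H2-Aa in 3, of H2-Eb1 in 5, of H2-DMb1 in 1 and of Cd74 in 4. The GENCODE start of H2-DMa was covered in 0 of 12. In the recipients the starts of H2-Ab1, H2-Aa, H2-Eb1, H2-DMb1 and Cd74 were covered in 2, 1, 0, 1 and 4 of 11 libraries. Within 1 kb of the start a peak lay in 7 of 12 long-term and 8 of 11 recipient libraries at H2-Ab1 and in 8 of 12 and 8 of 11 at Cd74, in 3 of 12 and 3 of 11 at H2-Aa, in 5 of 12 and 0 of 11 at H2-Eb1, and in 1 of 12 and 1 of 11 at H2-DMb1. By the same measure, all 8 epithelial marker genes had an H3K27ac peak within 1 kb of the start in every library. Of the 8 B cell markers 0 to 1 had one, of the dendritic cell and T cell markers 0 to 1, and of the macrophage markers 2 in each long-term library. Peaks are presence or absence of enrichment at the caller's threshold, and the depth behind them is unknown, so an uncovered start is not a start without the mark.

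Ciita has several starts, and H3K27ac peaks covered the start base of only 1 of them. Mouse Ciita is read from alternative promoters, which along the gene serve dendritic cells and macrophages (pI), B cells (pIII) and, last, cells stimulated with interferon gamma (pIV). The count table's start is at 10480165 of chromosome 16 (mm9). The annotation gives further starts at 10488271 and 10489876 without naming the promoters. No H3K27ac peak covered the first or the second in any long-term or recipient library. Within 1 kb of the second a peak lay in 3 of 12 long-term and 5 of 11 recipient libraries, and within 1 kb of the first in none. The last, 9711 bp into the gene, was covered in 7 of 12 long-term libraries (4 HFD and 3 LFD) and in 10 of 11 recipients. H3K4me1 covered it in 12 of 12.

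H3K4me1 reached more of the starts than H3K27ac in part of the genes. It covered the start of H2-Ab1 in 9 of 12 libraries and lay within 1 kb in 12 of 12, and it covered the GENCODE start of H2-DMa in 12 of 12. At the starts of H2-Aa, H2-Eb1, H2-DMb1 and Cd74 it was found in 1, 2, 1 and 2 of 12.

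**Figure D4:**
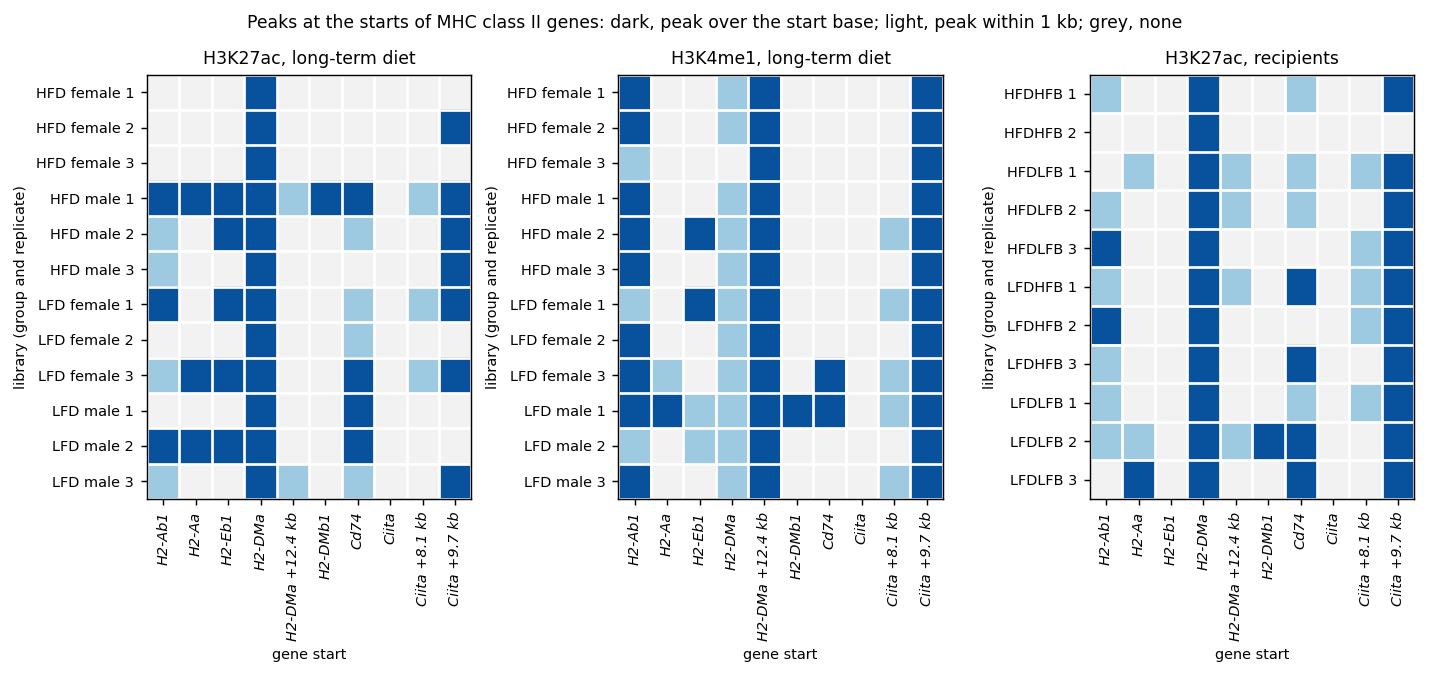
Peaks at the count table's start of each class II gene and at further annotated starts of H2-DMa and Ciita (columns) in each library (rows). Further starts carry the distance from the table's start. Dark marks a peak over the start base, light a peak within 1 kb and grey none. The last start of Ciita and the table's start of H2-DMa, which lies next to Brd2, are the starts covered in most H3K27ac libraries of both sets.

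Away from the starts some sites were marked in every library. H3K27ac lay in all 12 long-term and all 11 recipient libraries in the class II region at chr17:34437801-34438600, in an intron of the predicted gene Gm20513 4628 bp from the annotated start of H2-Eb1, and at chr17:34446401-34447000 inside H2-Eb1. In Cd74 it lay in an intron at chr18:60965001-60965200. Upstream of Ciita it lay at chr16:10471401-10473200, between genes. At the DM genes the constant sites were at Brd2 and just beyond it, and none lay at H2-DMb1.

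Diet did not separate the long-term H3K27ac libraries at any member. Taking the base pairs covered by peaks within 10 kb of each locus, HFD differed from LFD by -753 bp at H2-Aa, 1100 at H2-Ab1, 68.5 at H2-Eb1, 433 at H2-DMa, 300 at H2-DMb1, -200 at Cd74 and 1182 at Ciita. Two-sided exact permutation tests with the diets permuted within each sex gave p from 0.58 to 1, and all adjusted p were 1. Over all genes with a peak, 4.15% had an unadjusted p under 0.05 and 65.8% were above 0, as were 5 of 7 members. The sexes went opposite ways at 4 members, with 3867 bp in males and -1667 bp in females at H2-Ab1, 2733 and -2596 at H2-Eb1, 4455 and -2091 at Ciita, and 400 and -800 at Cd74. These differences between sexes were not tested. Without HFD male replicate 1 the pooled differences were -16.7 bp at H2-Ab1, -1146 at H2-Eb1, -335 at Ciita and 0 at H2-DMb1, and 6 of 7 members changed sign when some single library was left out.

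The spread came from a few libraries. H2-Ab1 was covered over 10400, 4400 and 3000 bp in HFD male replicates 1 to 3 and 0, 4400 and 1800 bp in LFD male replicates 1 to 3. In females the values were 800, 800 and 0 bp on HFD and 3000, 0 and 3600 bp on LFD. HFD male replicate 1 was the highest library at H2-Ab1, H2-Eb1 (11989 bp), Cd74 (6000 bp) and Ciita (16400 bp), and LFD male replicate 2 the highest at H2-Aa (7916 bp). Peaks covered the table's start of 6 of 7 members, the H2-DMa start next to Brd2 included, in HFD male replicate 1, of 5 in LFD male replicate 2, of 4 in LFD female replicate 3 and of 3 in LFD female replicate 1, against 1 to 2 in the others. Those 4 libraries did not have more peaks in all, with 38932 to 40140 against 38317 to 42852 over the 12 libraries. Within 1 kb of the start, HFD male replicate 1 and LFD female replicates 1 and 3 had a peak at 0 of 8 B cell, 0 of 8 T cell, 0 of 8 dendritic cell and 2 of 8 macrophage markers, and LFD male replicate 2 at 1 B cell, 1 T cell, 0 dendritic cell and 2 macrophage markers. That T cell marker was the only such peak in the 12 libraries, and the part of leukocytes in these values was not tested.

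**Figure D5:**
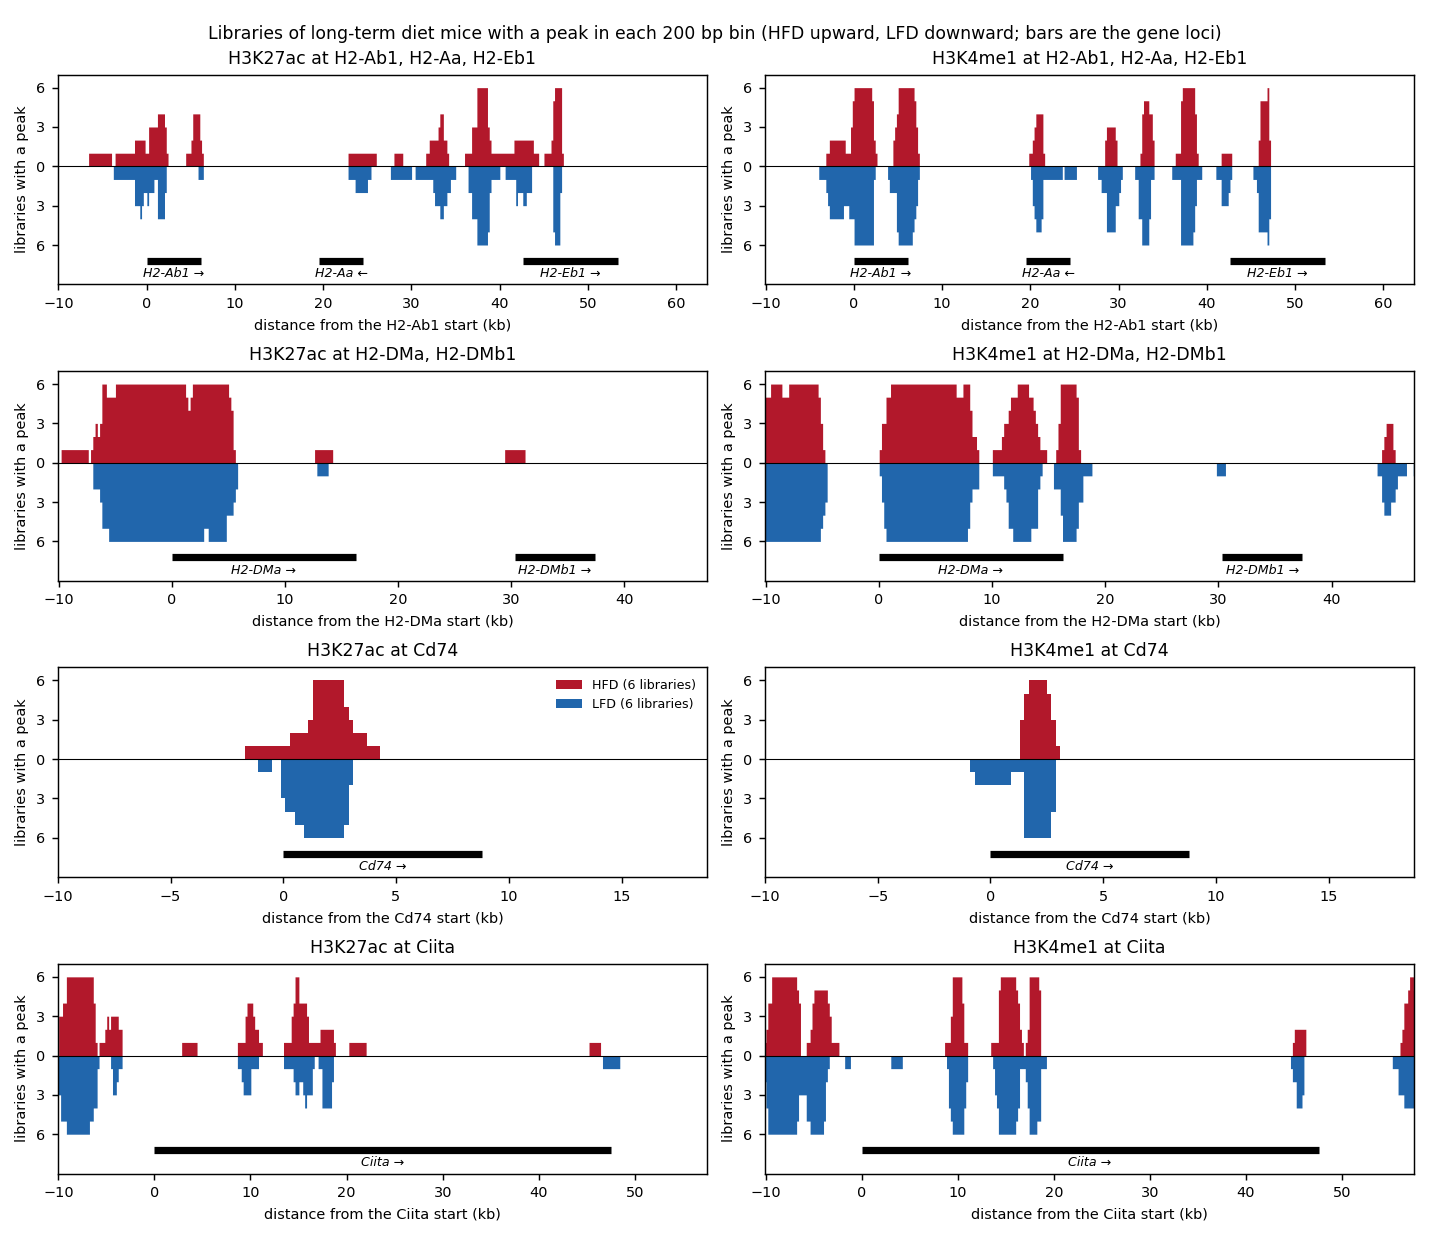
Number of long-term libraries with a peak in each 200 bp bin of the 4 loci, against the distance in kb from the start of the first gene, for H3K27ac (left) and H3K4me1 (right), with 6 HFD libraries counted upward in red, 6 LFD libraries downward in blue and black bars for the gene loci. Sites at full height in both directions are marked in all 12 libraries, as inside H2-Eb1, in Cd74 and upstream of Ciita, and 149 of the 369 H3K27ac bins at H2-Ab1, H2-Aa and H2-Eb1 were marked in some libraries only.

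H3K4me1 was lower on HFD on average at all 7 members, which share 4 loci. The differences ran from -633 bp at Cd74 to -1984 bp at Ciita, with -1800 at H2-Aa and -1100 at H2-Ab1. The p of the two-sided exact permutation tests ran from 0.08 to 0.35, and all adjusted p were 1. Over all genes with a peak 48.2% were below 0 and 3.42% had an unadjusted p under 0.05, against 0 of 7 members. Only at H2-Ab1 in females did the diets not overlap, with 4800, 5400 and 4200 bp on HFD and 7400, 6800 and 8400 bp on LFD, which 2.57% of all genes also showed in that direction. In males H2-Ab1 was higher on HFD by 533 bp on average and overlapped, at 7400, 5000 and 7400 bp on HFD and 7600, 4400 and 6200 bp on LFD.

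In the recipients, most members leaned with diet in the direction opposite to most genes, without any member passing the test. On HFD 6 of 7 members were covered less on average, from -133 bp at H2-DMb1 to -867 bp at H2-Ab1, while 80.2% of all genes were covered more and 19.3% less. The exception was H2-DMa, at 2004 bp (two-sided exact permutation test, p = 0.06, adjusted p = 0.334), whose window contains Brd2. Among the other 6 the lowest was 0.2 at Ciita in the two-sided exact permutation test, so 0 of 7 members had p under 0.05, against 15% of all genes. The difference at H2-DMb1 came from LFDLFB replicate 2 alone, with 800 bp, and was 0 bp without that library. HFD-fed recipients had 42486 to 51873 peaks and LFD-fed recipients 39684 to 45797. H2-Ab1 was covered over 1200 and 0 bp in HFDHFB, 800, 3000 and 3200 bp in HFDLFB, 1400, 2400 and 2200 bp in LFDHFB and 2600, 4400 and 1000 bp in LFDLFB. It did not overlap between diets with HFB, lower on HFD as in 2.14% of all genes, and H2-DMa did not overlap with LFB, higher on HFD as in 12.8% of all genes.

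For the donor, 6 of 7 members were covered less in recipients of HFB than of LFB, from -1200 bp at H2-Ab1 to 133 bp at Cd74, against 58.4% of all genes below 0. H2-DMb1 was among the 6 through LFDLFB replicate 2 alone, and its difference was 0 bp without that library. The p of the two-sided exact permutation tests ran from 0.155 to 1, all adjusted p were 1, and 0 members and 3.31% of all genes had an unadjusted p under 0.05. H2-DMa did not overlap between donors in HFD-fed recipients, being lower with HFB, as were 7.27% of all genes.

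HNF4a bound near the class II genes at few sites. Peaks within 10 kb of the locus numbered 1 and 2 in the HFD libraries and 1 and 1 in the LFD libraries at Ciita, 1 and 2 against 3 and 4 at H2-DMa, 0 and 0 against 1 and 1 at Cd74, 0 and 2 against 1 and 0 at H2-Aa, 0 and 2 against 0 and 0 at H2-Eb1, 0 and 0 against 1 and 0 at H2-DMb1, and 0 in all at H2-Ab1. H2-DMa and Cd74 had fewer on HFD without overlap, 2 of 7 members, as had 8.08% of all genes. With 2 libraries a diet the exact permutation test can give no p below 0.333, which was the value of both. Part of the H2-DMa peaks lay at Brd2, and within 2 kb of the gene starts no member separated the diets. The Cd74 site begins 1877 bp from the table's start and is 404 bp wide. The 2 kb window cuts through it and cannot show the difference at Cd74.

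A site upstream of Ciita was bound in all 4 HNF4a libraries, and its sequence is shown because a peak was called there in each of them. It (chr16:10472079-10472298, mm9, plus strand) lies 8044 bp from the first annotated start, between genes, inside the constant H3K27ac site. The line prints the stretch common to the 4 libraries, with CAAAGNCC, a core like that of HNF4 sites, in capitals.
Ciita upstream site: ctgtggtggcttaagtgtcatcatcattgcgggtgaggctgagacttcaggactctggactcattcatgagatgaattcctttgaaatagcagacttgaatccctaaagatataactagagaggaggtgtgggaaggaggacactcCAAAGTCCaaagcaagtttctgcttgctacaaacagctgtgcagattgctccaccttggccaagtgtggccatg
It held the core 1 time on the printed strand, as CAAAGTCC. Of all HNF4a peaks in the 4 libraries, 14.3% to 16.2% held CAAAGNCC on either strand. The Ciita site carried H3K27ac in 12 of 12 long-term and 11 of 11 recipient libraries.

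A further site, in an intron of Cd74 (chr18:60965380-60965783), was bound in both LFD libraries and in neither HFD library, and H3K27ac lay there in 12 of 12 long-term libraries and 10 of 11 recipients. The LFD peaks overlapped only at chr18:60965554-60965599. LFD male replicate 1 had 27766 HNF4a peaks in all, LFD male replicate 2 had 21308 and the HFD libraries 22640 and 22506. The share of HNF4a sites with this pattern was not computed.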

How the data were processed

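RNA-seq of transplant recipients and ChIP-seq peak lists of long-term fed mice and recipients were used. The authors aligned RNA reads to mm9 with STAR and counted them per gene with featureCounts, and deposited raw counts. No unit other than counts and peak positions was used, and 0 per-sample columns of the table were left out. ChIP reads were aligned with Bowtie 0.12.8 to mm9 and kept when unique and not duplicated, per the study's methods and the submitters' processing notes. Peaks were called per library, with SICER v1.1 for histone marks (window 200 bp, gap 200 bp for H3K27ac and 400 bp for H3K4me1, FDR 0.001) and HOMER for HNF4a. The deposited lists hold positions without scores, so their depth is unknown.

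Counts were fitted with edgeR 4.0.16 (R 4.3.3, TMM, filterByExpr, quasi-likelihood, 12 libraries in 1 fit, no replicate block) in 7 comparisons, with Benjamini-Hochberg adjustment over 15893 genes and a threshold of 0.05. DESeq2 1.42.0 was an alternative. Nothing in the labels says that replicates are separate animals, so p-values measure the spread between these samples. RPKM was computed from CPM and the length of each gene's merged exons in the GENCODE annotation of mm9, and log2 CPM with a prior count of 2. Exact two-sided permutation within sex, diet or donor (numpy 2.4.6) tested covered base pairs within 10 kb of every gene. For HNF4a it tested numbers of peaks. The smallest p of this permutation was 0.005 for histone marks, and p was adjusted over all genes with a peak. Tests were checked on simulated data: of 62, 67 and 71 genes changed by 1, 2 and 3 on the log2 scale in HFDHFB against HFDLFB, 20, 43 and 63 were called, with 6 false calls. The members and gene lists were chosen with earlier results of these data known, and the motifs after the sequences were seen. Named were the 7 members, the list genes that were called or that define a list, and the 10 genes most correlated with the members, and other names were chosen after their values were seen. Alternatives were another normalization, DESeq2, no filter, the compared groups alone, a replicate block, an unadjusted threshold, other windows, measures and overlaps for peaks, each sex alone, and each library left out. Some items that the text would otherwise name are not reported here.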

Additional observations from a re-analysis of the deposited data

How the results depend on the processing

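No member was called under any alternative of the 7 expression comparisons. Of the 10 genes most like the members, 4 were kept with Spearman correlation. An unadjusted p under 0.001 called 14, 1, 44, 9, 19, 7 and 3 of all genes, in HFDHFB against HFDLFB, LFDHFB against LFDLFB, HFDHFB against LFDHFB, HFDLFB against LFDLFB, the interaction, the diet average and the donor average, against 0 in each as reported, and DESeq2 called 80, 0, 116, 9, 35, 6 and 4. The replicate numbers did not pair the RNA-seq libraries (6 of 18 same-numbered pairs correlated above 0.1, from -0.591 to 0.451), and with the replicate block 0 genes were called. With labels swapped only within replicate numbers, 2 members had an unadjusted p under 0.05 in H3K4me1, against 0 as reported, and 0 to 2 with a library left out, 2 without LFD male replicate 2 and 1 without HFD female replicate 1 or LFD female replicate 1 or 2. HNF4a peaks separated the diets at 2 members, at 0 within 2 kb of the gene start, and at 2 to 5 with a library left out, 5 without HFD male replicate 1 and 3 without LFD male replicate 2, each of which leaves 1 library in a diet. The 2 kb window cuts through the HNF4a site of Cd74 and cannot show the difference there. Recipient H3K27ac had 0 to 1 members with an unadjusted p under 0.05 for donor and for diet, 1 without LFDHFB replicate 1 in each. With a library left out, signs of members' log2 fold changes turned 11 times: LFDHFB against LFDLFB for H2-Ab1 (-0.057 to 0.50) and H2-DMb1 (-0.019 to 0.63), both without LFDHFB replicate 2; HFDHFB against LFDHFB for H2-Eb1 (-0.36 to 0.038), without replicate 1 of either; and HFDLFB against LFDLFB for H2-Ab1 (-0.044 to 0.36, without HFDLFB replicate 1 or 2 or LFDLFB replicate 2), H2-DMa (-0.073 to 0.32, without HFDLFB replicate 1 or 2) and H2-DMb1 (-0.30 to 0.12, without HFDLFB replicate 3 or LFDLFB replicate 3). In covered base pairs signs turned for 6 members in long-term H3K27ac (H2-Aa -1769 to 533, H2-Ab1 -16.7 to 1833, H2-Eb1 -1146 to 851, H2-DMa -167 to 783, Cd74 -800 to 350 and Ciita -335 to 2365 bp), for 0 in H3K4me1, and in recipients for Cd74 by donor (-167 to 433 bp) and H2-Eb1 by diet (-712 to 185 bp). The cause was not tested. Spread between libraries limits expression, with a common biological coefficient of variation of 32.0%, and 2 libraries per diet limit HNF4a.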
